A study of Mus musculus with 2 samples.

Results

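Cells of the inflamed mouse pancreas that carry eosinophil receptor genes were described here from single-cell counts of 2 libraries. They were chosen by a rule that used measured values of a few genes. A cell barcode was a member when it held at least 2 unique molecular identifiers (UMIs, each standing for 1 captured RNA molecule) from Siglecf, Ccr3 and Il5ra together. It also had to hold at most 1 UMI of the B cell genes Cd79a and Ms4a1 together and at most 1 of the T cell genes Cd3e, Cd3g and Trac together. Cxcr2 and Csf3r, receptors abundant on neutrophils, had to take under 0.3% of its UMIs, and mitochondrial genes at most 25%. The rule found 310 members among 22208 kept barcodes, 280 of 13409 in the CP library and 30 of 8799 in the CP+EVs library. Siglecf, Ccr3 and Il5ra chose the members, so their levels are given as a description.

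Both libraries came from pancreas of mice given the agent labelled "Cae", and the second also received the vesicles labelled "EVs", which the series title names as extracellular vesicles induced by exercise. The title speaks of chronic pancreatitis, but both libraries are labelled as acute pancreatitis in their condition field. No untreated pancreas, strain, age or number of animals per library is given in the labels. Each condition is therefore 1 library, and every difference between conditions below compares 2 libraries and has no replicate check. Intervals are exact 95% intervals and cover counting error only.

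Eosinophils are granulocytes that mature in bone marrow under GATA1 and interleukin-5 and enter tissues along eotaxins, which bind CCR3. Their granules hold major basic protein (Prg2), eosinophil peroxidase (Epx) and ribonucleases of the Ear family, and Siglec-F (Siglecf) is an inhibitory lectin on their surface. In tissue they are known for type 2 cytokines, lipid mediators made by Alox15, and roles in both repair and fibrosis.

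The promoters of the 3 genes of the rule and of Il1rl1, the receptor for interleukin-33, are shown because GATA factors set the eosinophil lineage and the genes were measured together in the same barcodes. Each run is the 250 bases before the RefSeq start of transcription on GRCm38.p6, written 5′ to 3′ on the gene's own strand, with each AGATAA or TGATAA, or their reverse complement, in capitals.
Ccr3: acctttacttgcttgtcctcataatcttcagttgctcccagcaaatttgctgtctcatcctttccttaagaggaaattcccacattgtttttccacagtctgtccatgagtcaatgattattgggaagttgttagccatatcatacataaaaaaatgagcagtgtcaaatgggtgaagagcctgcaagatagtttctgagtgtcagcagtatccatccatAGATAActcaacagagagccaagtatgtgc
Il5ra: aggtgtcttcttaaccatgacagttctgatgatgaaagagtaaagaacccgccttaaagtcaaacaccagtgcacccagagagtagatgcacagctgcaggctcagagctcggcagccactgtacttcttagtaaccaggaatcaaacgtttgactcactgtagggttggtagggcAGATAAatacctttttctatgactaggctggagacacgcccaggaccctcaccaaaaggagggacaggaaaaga
Il1rl1: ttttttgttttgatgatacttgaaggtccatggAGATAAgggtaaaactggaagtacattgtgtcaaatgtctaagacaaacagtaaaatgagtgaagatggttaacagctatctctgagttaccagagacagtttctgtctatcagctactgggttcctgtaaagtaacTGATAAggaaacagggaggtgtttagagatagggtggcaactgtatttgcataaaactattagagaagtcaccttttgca
Siglecf: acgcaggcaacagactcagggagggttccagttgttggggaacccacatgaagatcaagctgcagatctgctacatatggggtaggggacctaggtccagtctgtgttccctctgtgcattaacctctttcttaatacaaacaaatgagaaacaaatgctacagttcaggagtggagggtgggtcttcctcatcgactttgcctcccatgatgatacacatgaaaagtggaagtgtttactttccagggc
These windows lie at chr9:124021721-124021970 on the plus strand (Ccr3), chr6:106749038-106749287 on the minus strand (Il5ra), chr1:40429320-40429569 on the plus strand (Il1rl1) and chr7:43351091-43351340 on the plus strand (Siglecf). In these windows Ccr3 and Il5ra each held 1 match, Il1rl1 held 2 and Siglecf held none; another Il1rl1 start in the table, with the window chr1:40439379-40439628, held 1. Over the 16 genes taken from the rule and from those leading in subset 1 of the members, described below, 7 of 21 promoters held a match (33.3%), beside 16.6% of all 32851 promoters in the table. Leading genes not searched were Alox15, Inpp5j, Prg2 and Rab44. The C/EBP letters TTGCGCAA or TTGTGCAA were in none of the 21 and in 1.06% of all promoters, and the STAT letters TTCNNNGAA in none and in 7.02%. All motifs were searched on both strands, none of the 3 sets of letters contains another, and a match describes the sequence only. Gata1 itself, the factor of the eosinophil lineage, was counted at 175 CPM (130 to 231), where CPM is UMIs per 1000000 summed UMIs of a set, in subset 1, against 1.66 CPM in neutrophils.

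The deposited matrices held 51652425 UMIs in 13507 barcodes (CP) and 38532775 UMIs in 8845 barcodes (CP+EVs), with medians of 1417 and 2902 UMIs over the kept barcodes. The libraries shared 118 barcode sequences; 1 member carried such a sequence and none was a member in both. For comparison, a neutrophil set (Cxcr2 and Csf3r at 0.3% of UMIs or more) held 1668 CP barcodes, and a monocyte and macrophage set (at least 2 UMIs of Csf1r, Ccr2 and Cx3cr1) held 4490. A T cell set (at least 2 UMIs of Cd3e, Cd3g and Trac) held 784. All 3 sets lacked the 3 genes of the rule by construction. CP+EVs held 17 and 878 such barcodes, so cell types were compared within CP. RNA of other cells was common. It was counted as at least 3 UMIs of collagen-type fibroblast genes (Col1a1, Col1a2, Col3a1, Dcn) or of the macrophage genes C1qa, C1qb, C1qc and Csf1r. Of T cells, 93.1% in CP and 63.9% in CP+EVs had such counts, as did 81.8% of CP neutrophils. Over all kept barcodes, which include fibroblasts and macrophages themselves, the shares were 90.8% and 81.2%. In CP, the summed collagen-type genes were at 22605 CPM in the monocyte and macrophage set, near the 24262 CPM of the library. They were at 3853 CPM in neutrophils and 5555 CPM in subset 1. Ratios to monocytes and macrophages below therefore compare with a mixed set. The part of fibroblast RNA in those ratios was not tested.

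Members were found mainly through Ccr3, the eotaxin receptor. In CP, 218 of 280 members had a Ccr3 UMI, 131 a Siglecf UMI and 73 an Il5ra UMI, the last being the specific chain of the interleukin-5 receptor. Of these members, 122 had UMIs of at least 2 of the 3 genes, 101 passed on Ccr3 alone, 51 on Siglecf alone and 6 on Il5ra alone. The summed count was low throughout, 11 UMIs at most in CP and 6 in CP+EVs. In CP+EVs, 20 of 30 members had a Ccr3 UMI, 10 a Siglecf UMI and 12 an Il5ra UMI, and 8 passed on Il5ra alone.

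The label was checked on 2 markers the rule did not use. Alox15, the lipoxygenase of eosinophil lipid mediators (ENSMUSG00000018924, mm10 chr11:70344152-70352031, minus strand), had a UMI in 189 of 280 CP members (67.5%). With every barcode thinned to 500 UMIs the share was 50.7% of members, against 0.899% of neutrophils, 1.11% of monocytes and macrophages and 1.02% of T cells, so Alox15 stood far above what free RNA gave in cells that lack it. Unthinned, those sets showed 2.82%, 6.06% and 7.14%, at median depths of 1625, 2457.5 and 3109 UMIs, while members had a median of 1511. Epx (mm10 chr11:87864000-87875536, minus strand) had no UMI in any of the 310 members; 0 of 280 CP members allows a share of up to 1.07% with a UMI. Epx was at 0.525 CPM in the whole CP library and at 0 in CP+EVs.

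Around the thresholds, Alox15 followed the summed count of the rule's genes in CP. Of barcodes just outside, with a sum of 1, 25.8% had an Alox15 UMI (535 barcodes), against 60.7% just inside at 2 (150 barcodes) and 75.4% at 3 or more (130 barcodes). Barcodes with a sum of 0 showed 5.69%. At the neutrophil limit, the 106 barcodes left out had an Alox15 UMI in 2.83%, the 90 inside with some Cxcr2 or Csf3r in 41.1%, and the 190 with none in 80%. The B and T cell limits removed 14 and 23 CP barcodes that passed the other threshold. In CP+EVs the Alox15 shares were 12.2% of 74 barcodes at 1, 43.75% of 16 at 2, and 57.1% of 14 at 3 or more.

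The members of CP fell into 4 subsets when clustered without the genes of the rule, and the subsets differed in what they were. Because the clustering used these genes, their differences between subsets describe the split. Subset 1 held 193 members (68.9%), with a median of 1345 UMIs. Ccr3 had a UMI in 181 of them, Alox15 in 170, F5 in 166, Siglecf in 70, Il5ra in 66 and Prg2 in 40. Of the 5 fixed eosinophil markers, Siglecf, Ccr3 and Il5ra had chosen the members and Epx was at 0, so Alox15 alone stood outside the rule, and it was among the genes clustered. Subset 1 is therefore called by its number and its leading genes, Alox15 and F5.

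Subset 2 (39 barcodes, median 2068 UMIs) had passed mainly on Siglecf, with a UMI in 37, and had Alox15 in 1 and Il5ra in none. Its leading genes were inflammatory receptors and cytokines: Il1b at 15116 CPM, Trem1 at 3357 CPM, Il1r2 at 2338 CPM, Cd33 at 1399 CPM and Clec5a at 1018 CPM. The neutrophil alarmin S100a8 was at 6064 CPM there, against 13497 CPM in the neutrophil set and 640 CPM in subset 1. Subset 2 was therefore left unnamed. In CP, only 8.1% of the library's Siglecf UMIs lay in subset 1, against 50.6% of Ccr3 and 43.9% of Il5ra UMIs.

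Subsets 3 and 4 were few and deep, so they weighed heavily in any sum over members. Subset 3 (30 barcodes, median 7561.5 UMIs) carried Mpo at 2738 CPM and Elane at 2500 CPM, the myeloperoxidase and elastase of granulocyte precursors. The plasma cell gene Jchain was at 9757 CPM in it. Subset 4 (18 barcodes, median 16760.5 UMIs) carried the fibroblast genes Col1a1 at 14490 CPM, Lox at 2250 CPM and Postn at 689 CPM. Subset 1 gave 31.1% of the UMIs of all CP members, and subsets 3 and 4 gave 28.8% and 30.4%.

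**Figure D1:**
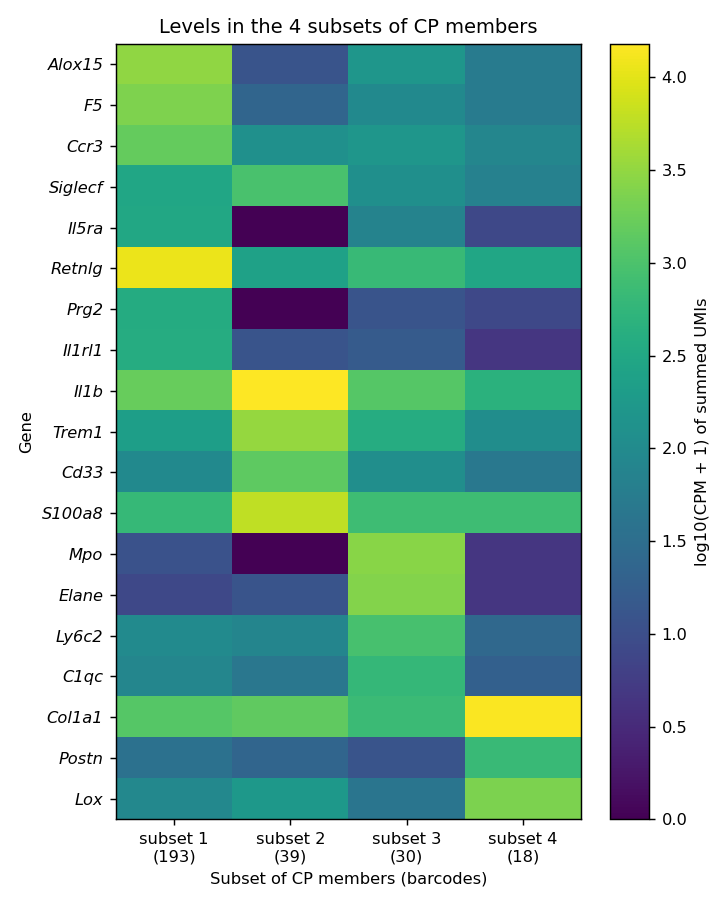
Levels of 19 genes (rows) in the 4 subsets of CP members (columns, with barcodes in each), as log10 of CPM of summed UMIs plus 1 (colour). Alox15, F5, Retnlg and Prg2 are bright in subset 1, Il1b and Trem1 in subset 2, Mpo and Elane in subset 3, and Col1a1, Postn and Lox in subset 4.

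Barcodes carrying genes of another lineage were counted directly. In CP, 2 members with at least 20 UMIs of Mpo, Elane, Prtn3 and Ctsg gave 6.78% of member UMIs and had no Alox15 UMI. The 25 members with at least 2% collagen-type UMIs gave 32.5%, and 18 of them were in subset 4. The 7 members with at least 5% immunoglobulin and Jchain UMIs gave 7.52%. In CP+EVs the last kind dominated: 8 of 30 members gave 72.8% of member UMIs, all 8 had an Il5ra UMI, and none had an Alox15 UMI. Whether these barcodes hold more than 1 cell, or a cell other than an eosinophil, was not tested. For this reason the gene levels below are given for subset 1, a choice added after seeing the data, and for all members where that is said. Folds of subset 1 over other sets may be partly set by this choice and by the genes clustered.

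Over all CP members, the 15 genes highest relative to all other CP barcodes showed this mixture. Mpo, Elane, Ctsg, Ms4a3 and Prtn3 were among them, at 792.6, 724.0, 263.5, 132.8 and 296.2 CPM. For each gene, the 2 members with most of its UMIs gave between 97.4% and 100% of its member UMIs. The other 10 were spread over many members. Alox15 was at 1020 CPM in members against 27.6 CPM in the rest, F5 at 764.3 against 40.3 CPM, and Rab44 at 553.1 against 31.3 CPM. Adora3, P2ry14, Serpinb2, Rflnb, Gapt, Prg2 and Retnlg completed the 15, with members between 17.2-fold (Adora3) and 7.10-fold (Retnlg) higher.

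Against neutrophils, the 10 genes lowest in members were Stfa2, Mmp8, Ly6g, Ngp, Rsad2, Klra17, Chil1, Il1f9, Cstdc4 and S100a8. Stfa2, a cytosolic inhibitor of cysteine proteases, was at 2.18 against 127 CPM, Mmp8, the neutrophil collagenase, at 27.2 against 1069 CPM, Ngp, a granule protein, at 71.9 against 1108 CPM, and S100a8 at 1235 against 13497 CPM. Of 6712 genes measured (at least 20 CPM in either set and 20 UMIs in all; ratios only, with no test), 35.7% were higher in members by a factor of 2 or more and 11% were lower by as much. Scaling by the median of ratios instead gave 1990 higher and 1033 lower in place of 2394 and 740. Against monocytes and macrophages, the lowest were F13a1, a coagulation factor subunit of macrophages (188.4 against 1001 CPM), and the mannose receptor Mrc1 (117.6 against 548.0 CPM). Of 7011 genes, 6.75% were higher and 5.08% lower by that factor. In subset 1 alone the shares were 28.8% higher and 12.6% lower against neutrophils (6225 genes), and 18.3% higher and 26.3% lower against monocytes and macrophages (7283 genes).

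To read low levels, free RNA was measured in subset 1 itself. Markers of unrelated cell classes (23 genes) stood at 14.4% (Mrc1) to 62.7% (Csf1r) of their level in the whole CP library, with a median of 23.4%. A gene at or below that highest value is read here as background. Genes of the rule aside, the levels that follow lie above it unless stated otherwise.

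Among granule genes, Prg2 (major basic protein) was at 371 CPM (304 to 449) in subset 1, against 5.32 CPM in neutrophils and 3.41 CPM in monocytes and macrophages. It was carried by 40 of 193 barcodes. The ribonucleases were near zero: Ear6 had 12 UMIs in 11 barcodes, Ear1 had 2 UMIs and Ear2 had none, and reads of Ear genes may be shared between near copies. Serpinb2, a serpin that blocks plasminogen activators, was at 2012 CPM (1850 to 2183) in subset 1, 110-fold (83.3 to 148) over neutrophils and 36.1-fold (32.7 to 39.8) over monocytes and macrophages. Of the granule list, 10 of 17 genes found in the files were measured against monocytes and macrophages, with 5 higher and 4 lower by 2-fold, beside 18.3% and 26.3% of all genes. Against neutrophils 8 were measured, with 3 higher and 3 lower (median log2 -0.47, all genes 0.43), beside 28.8% and 12.6% of all genes.

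Alox15, F5 and Rab44 were found in 170, 166 and 170 of the 193 barcodes of subset 1. Alox15 was at 3079 CPM (2878 to 3289) from 880 UMIs, 189-fold (142 to 257) over neutrophils and 248-fold (218 to 282) over monocytes and macrophages, first in the ranking against each set. It was at 16.3 CPM in neutrophils, 12.4 CPM in monocytes and macrophages and 15.8 CPM in T cells. Because Alox15 was among the genes clustered, its folds and ranks in subset 1 may be partly set by the choice of subset. Over all members Alox15 was 62.6-fold (47.0 to 85.3) over neutrophils and 82.0-fold (72.2 to 93.4) over monocytes and macrophages. Its ranks over all members were 5 and 3. F5, coagulation factor V (mm10 chr1:164151838-164220277, plus strand), was at 2309 CPM (2136 to 2492), against 71.5 CPM in neutrophils, 25.1 in monocytes and macrophages and 12.6 in T cells. Rab44, a large Rab GTPase (mm10 chr17:29114145-29148980, plus strand), was at 1595 CPM (1452 to 1749), against 101, 12.8 and 9.08 CPM in the same sets. For all 3 genes the counting interval of subset 1 lay above those of the other sets. Against neutrophils P2ry14, Serpinb2 and Prg2 ranked above F5 and Rab44, and against monocytes and macrophages Dach1 came between Alox15 and Rab44.

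**Figure D2:**
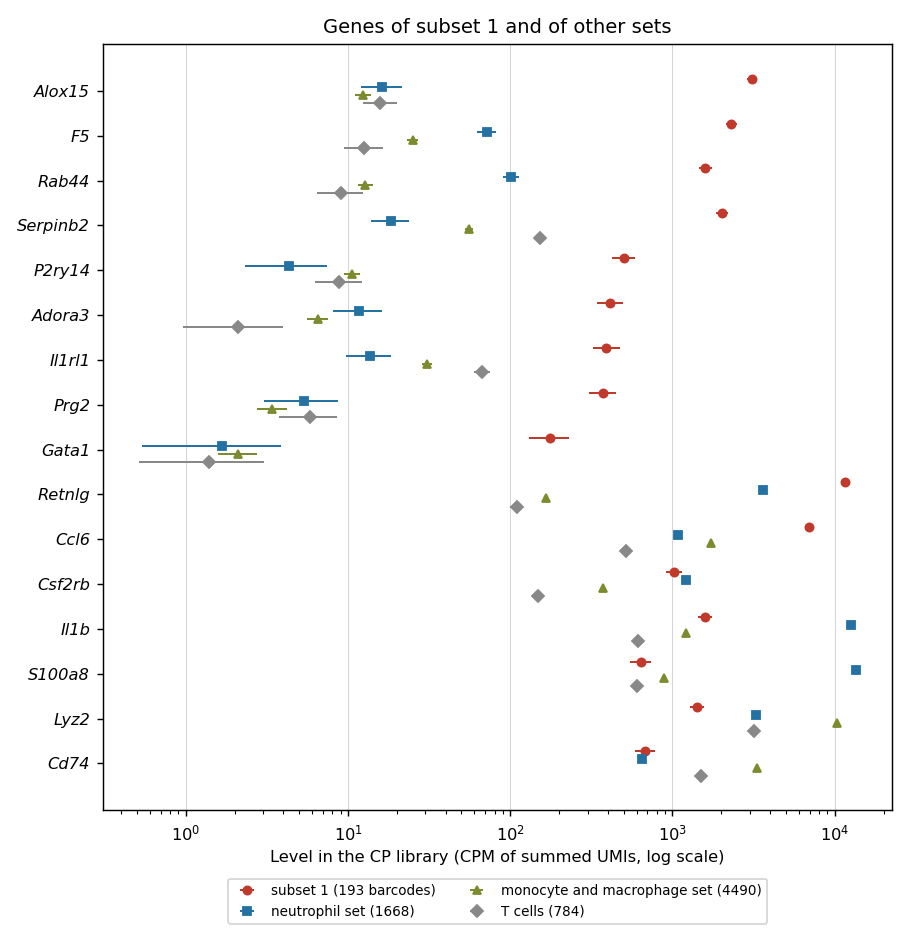
Levels of 16 genes in 4 sets of the CP library, as CPM of summed UMIs on a log axis; points are levels and bars exact 95% counting intervals. Alox15, F5, Rab44, Serpinb2, Prg2 and Gata1 lie far to the right in subset 1, Il1b and S100a8 in neutrophils, and Lyz2 and Cd74 in monocytes and macrophages.

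The same genes stood out by where the library's RNA lay. Of all CP UMIs of Alox15, 37.7% were in the 193 barcodes of subset 1, which are 1.44% of kept barcodes. The shares were 32.7% for Vmn2r26, a receptor of the vomeronasal family, 26% for Il4, 24.1% for F5, 22.3% for Adora3, 21.8% for Rab44 and 20.2% for Dach1. By the rule for genes most like Ccr3 (the share of CP UMIs lying in all members, at 59.2% for Ccr3), Mpo (68.2%), Elane (61.2%), Ctsg (59.2%), Ms4a3 (57.3%) and Alox15 (40.1%) came first, and of these 5 only Alox15 was spread over more than 7 members.

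Receptors were higher or lower gene by gene. Of the receptors for growth and type 2 cytokines, 1 of 24 measured was at least 2-fold higher than in neutrophils and 11 lower, beside 28.8% and 12.6% of all genes, and 5 of 23 were higher and 7 lower than in monocytes and macrophages, beside 18.3% and 26.3%. Of chemoattractant receptors, 6 of 15 were higher and 4 lower than in neutrophils, and 8 of 18 higher and 8 lower than in monocytes and macrophages. Il1rl1, through which interleukin-33 acts on eosinophils, was at 391.8 CPM (323 to 471), 28.7-fold over neutrophils and 12.7-fold over monocytes and macrophages. Csf2rb, the shared signalling chain for interleukin-5 and GM-CSF, was at 1025 CPM, close to the 1210 CPM of neutrophils and 2.75-fold (2.44 to 3.09) over monocytes and macrophages; its reads may be shared with the near copy Csf2rb2. P2ry14, a receptor for UDP-sugars, was at 500 CPM against 4.32 in neutrophils, and Adora3, the adenosine receptor of granulocytes, at 413 CPM against 11.6. C3ar1, the receptor for complement C3a, was 16.7-fold over neutrophils and 1.57-fold over monocytes and macrophages. The interleukin-6 receptor Il6ra was at 66.5 CPM against 610 CPM in neutrophils, a level read as background.

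Genes downstream of those receptors were present. Cish, which STAT5 is known to induce, was at 133 CPM (94.1 to 182) against 4.32 CPM in neutrophils and 4.90 CPM in monocytes and macrophages. Pim1, a survival kinase, was at 3631 CPM, 1.11-fold over neutrophils and 3.82-fold over monocytes and macrophages. Of the JAK, STAT and survival list, 9 of 21 measured genes were at least 2-fold higher and 2 lower than in monocytes and macrophages (median log2 0.89, all genes -0.14), beside 18.3% and 26.3% of all genes. Against neutrophils 2 of 20 were higher and 5 lower (median -0.28, all genes 0.43), beside 28.8% and 12.6%.

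In the lipid list, 7 of 12 measured genes were at least 2-fold higher than in monocytes and macrophages and 1 lower (median log2 1.28), beside 18.3% and 26.3% of all genes. Against neutrophils 6 of 11 were higher and 1 lower (median 1.69), beside 28.8% and 12.6% of all genes. Alox5, which starts leukotriene synthesis, was at 476 CPM (399 to 563), 8.62-fold over monocytes and macrophages. Pla2g7, which degrades platelet-activating factor, was at 1217 CPM, 3.23-fold over neutrophils and 6.55-fold over monocytes and macrophages. Ltc4s, the leukotriene C4 synthase, had no UMI in subset 1. Ptgs2, the inducible cyclooxygenase, was at 724 CPM against 2535 CPM in neutrophils.

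Inhibitory and adhesion receptors were high relative to monocytes and macrophages. Of 22 measured inhibitory and paired receptors, 12 were at least 2-fold higher and 2 lower, and of 20 adhesion genes 12 were higher and none lower, beside 18.3% and 26.3% of all genes. Against neutrophils the counts were 4 higher and 7 lower, and 7 higher and 4 lower, beside 28.8% and 12.6%. Siglecg, a sialic acid receptor better known from B cells, was at 458 CPM, 28.1-fold over neutrophils and 37.5-fold over monocytes and macrophages. Cd24a, a surface glycoprotein that binds such receptors, was at 2676 CPM, and Adgre1 (F4/80), used to sort mouse eosinophils and macrophages, at 563 CPM, 7.84-fold over neutrophils. Adgre4 was at 217 CPM, 54.4-fold over neutrophils, and the inhibitory lectin Clec12a at 486 CPM, 5.42-fold over neutrophils.

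The list of genes known from activated tissue eosinophils was read next. Of 25 measured, 16 were at least 2-fold higher than in monocytes and macrophages and 1 lower (median log2 1.75, all genes -0.14), but against neutrophils 7 were higher and 4 lower (median 0.40, all genes 0.43), beside 18.3% and 26.3%, and 28.8% and 12.6%, of all genes. Nfkbia, the feedback inhibitor of NF-kB, was at 4048 CPM (3818 to 4288), 1.89-fold over neutrophils and 6.4-fold over monocytes and macrophages. Thbs1, a matrix protein that activates TGF-beta, was at 5241 CPM and Slc7a11, the cystine transporter, at 1413 CPM, 30.8-fold over monocytes and macrophages. Fgfr1 was at 409 CPM, 45.6-fold over neutrophils. The costimulator Cd80 was at 248 CPM, 1.55-fold over neutrophils, and the checkpoint ligand Cd274 had 17 UMIs in 8 barcodes. Of the 25 genes of this list at 20 CPM or more in the library, 21 lay above the free-RNA ceiling, as did 60% of all such genes.

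**Figure D3:**
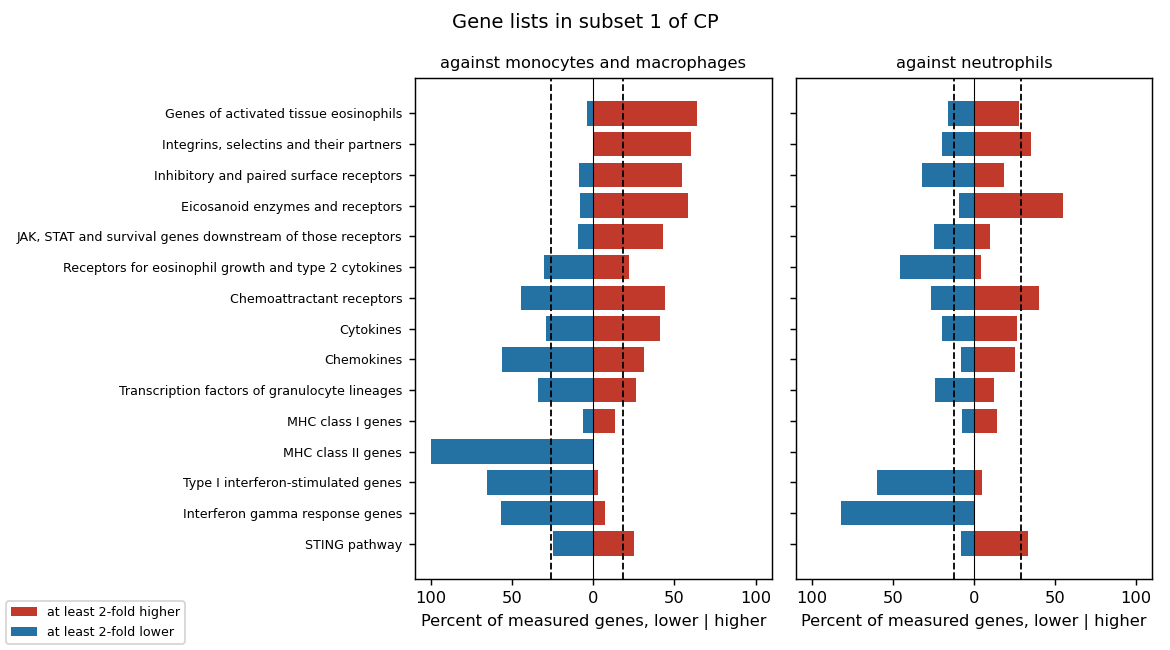
Percent of the measured genes of 15 lists that were at least 2-fold higher (right, red) or lower (left, blue) in subset 1 than in monocytes and macrophages (left panel) or neutrophils (right panel) of CP; dashed lines give the same percent over all genes measured. Against monocytes and macrophages most lists pass the right dashed line, and the activated, adhesion, inhibitory and lipid lists reach furthest past it. The interferon lists pass the left line in both panels, as do the cytokine receptor, chemoattractant receptor, cytokine and transcription factor lists.

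Cytokines and chemokines were mixed. Il4, a type 2 cytokine, had 27 UMIs in 21 barcodes (94.5 CPM, 62.2 to 137), which was 26% of the library's Il4 UMIs, against 0.332 CPM in neutrophils. Ccl6 was at 6913 CPM (6611 to 7224) and found in 189 of 193 barcodes, 6.4-fold over neutrophils and 3.99-fold over monocytes and macrophages. Ccl9 was 8.76-fold over neutrophils but 1.21-fold over monocytes and macrophages. Ccl3 was at 983 CPM and Tnf at 462 CPM, 11-fold and 4.7-fold over monocytes and macrophages. Il1b was at 1588 CPM, 7.92-fold lower than in neutrophils, and Cxcl2 at 2274 CPM, 2.56-fold lower. Of 16 chemokines measured against monocytes and macrophages, 5 were higher and 9 lower by 2-fold, and of 17 cytokines 7 were higher and 5 lower, beside 18.3% and 26.3% of all genes. Against neutrophils 3 of 12 chemokines were higher and 1 lower, and 4 of 15 cytokines higher and 3 lower, beside 28.8% and 12.6%.

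Transcription factors of the granulocyte lineages showed Gata1 together with the C/EBP genes. Gata1 was 105-fold (42.2 to 338) over neutrophils and 83.1-fold (55.5 to 124) over monocytes and macrophages, from 50 UMIs in 34 barcodes. Cebpe, needed for granule formation, had 14 UMIs in 11 barcodes, and Cebpb, a C/EBP of mature myeloid cells, was at 2047 CPM, 1.6-fold over neutrophils. Gata2, which mast cells and basophils also use, had 4 UMIs. Zeb2 was at 1812 CPM, 8.46-fold over neutrophils, and Ikzf2 at 161 CPM, 60.5-fold over neutrophils. In the whole factor list, 4 of 33 genes were at least 2-fold higher and 8 lower than in neutrophils (median log2 -0.57, all genes 0.43). The shares of all genes were 28.8% higher and 12.6% lower. Against monocytes and macrophages 10 of 38 were higher and 13 lower, near the 18.3% and 26.3% of all genes.

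Interferon genes were low in subset 1. Of 38 measured type I interferon-stimulated genes, 25 were at least 2-fold lower than in monocytes and macrophages and 1 higher (median log2 -1.22), beside 26.3% and 18.3% of all genes. Of 40 measured against neutrophils, 24 were lower and 2 higher (median -1.80), beside 12.6% and 28.8% of all genes. Ifitm3, which restricts virus entry, was at 735 CPM against 1132 CPM in neutrophils and 2427 CPM in monocytes and macrophages. Ifit3 had 1 UMI in subset 1, against 89.4 CPM in neutrophils. Of 40 such genes at 20 CPM or more in the library, 33 were at or below the free-RNA ceiling (82.5%, beside 40.0% of all genes). The interferon gamma list gave 8 of 14 lower and 1 higher than in monocytes and macrophages, and 9 of 11 lower and none higher than in neutrophils.

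The STING pathway itself, which senses cytosolic DNA, was measured thinly. Sting1 had 12 UMIs in 12 barcodes (42 CPM, 21.7 to 73.3), against 16.6 CPM in neutrophils and 96.4 CPM in monocytes and macrophages, and lay below the ceiling relative to the library's 74.8 CPM. Tbk1, the kinase that STING recruits, was at 140 CPM (100 to 191), 1.69-fold over neutrophils and 2.16-fold over monocytes and macrophages. Samhd1, a nucleotide hydrolase, was at 1795 CPM, 1.62-fold and 2.88-fold over the same sets. Of 12 measured genes, 3 were at least 2-fold higher and 3 lower than in monocytes and macrophages, near the 18.3% and 26.3% of all genes, and 4 were higher and 1 lower than in neutrophils, near the 28.8% and 12.6%.

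Class II and class I genes of antigen presentation differed in level. All 8 measured MHC class II genes were at least 2-fold lower than in monocytes and macrophages, beside 26.3% of all genes. Among them Cd74 was at 675 CPM against 3313 CPM. None of the 9 at 20 CPM or more in the library lay above the free-RNA ceiling, beside 60% of all genes. Of 15 class I genes, which nearly all cells carry, 12 were within 2-fold of monocytes and macrophages and 12 lay above the ceiling (80%, beside 60% of all genes); their summed level was 124% of the library's. Most markers of macrophages, monocytes and fibroblasts are among the genes that set the ceiling, so the lists of other cell types are given by level alone. The medians for macrophages, monocytes, fibroblasts, B cells and T and NK cells were 26.1%, 21.8%, 22.8%, 16.0% and 21.0% of the library level. Members were chosen with few UMIs of the B and T cell genes of the rule. Where the B cell and the T and NK cell lists hold those genes, their low medians may be partly set by the rule. The median over 15 neutrophil markers was 29.3%, and 6 of them, among them Retnlg, lay above 62.7%. The summed macrophage list was at 35.3% of its library level and the fibroblast list at 22.8%. Among 10 mast cell and 9 basophil markers, Cpa3 and Kit stood at 7 CPM each and 4 of each list, among them Ms4a2 and Fcer1a, had no UMI. The summed mast cell list was at 166% of its library level, with Hdc at 577 CPM giving most of it, and the summed basophil list, which holds Il4 and Gata2, at 458%.

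Levels varied from barcode to barcode, and Retnla most of all. Per 10000 UMIs, Alox15 ran from 0 to 106.0 with a median of 25.8, F5 from 0 to 89.7 with a median of 21.6, and Retnlg, a resistin-like gene of granulocytes, from 0 to 477.3 with a median of 84.0. Retnlg was at 11597 CPM in subset 1 and at 3629 CPM in neutrophils (3.2-fold, 3.07 to 3.32). Retnla, a resistin-like gene known from type 2 settings, was found in 21 of 193 barcodes, and the 12 with at least 5 UMIs held 96.6% of its UMIs. Those 12 had Retnla at 15028 CPM against 41.5 CPM in the other 181, with Alox15 at 1717 against 3186 CPM, Ccr3 at 1622 against 1533 CPM and Retnlg at 11402 against 11612 CPM. Macrophage markers were also higher in those 12: Mrc1 at 286 against 30.2 CPM (6 UMIs in the 12), Csf1r at 429 against 276 CPM (9 UMIs) and C1qa at 47.7 against 11.3 CPM (1 UMI). Their part in the Retnla level was not tested. The 12 were chosen by their Retnla count, and these values describe them.

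Members of the rule took a smaller share of the CP+EVs library, in subset 1 as over all members. All members together, which include the barcodes of other lineages counted above, were 2.09% (1.85 to 2.34) of CP barcodes and 0.341% (0.230 to 0.486) of CP+EVs barcodes, a share 6.12-fold lower (4.20 to 9.25) in CP+EVs. In subset 1, with CP+EVs members placed by the nearest subset, the shares were 1.44% (193 of 13409) and 0.227% (20 of 8799), 6.33-fold lower (3.99 to 10.6). Of barcodes with a UMI of the leukocyte gene Ptprc, members were 2.60% of 8845 and 0.556% of 4680, 4.68-fold lower (3.11 to 7.32). Members with an Alox15 UMI were 1.41% and 0.170%, 8.27-fold lower (4.89 to 15.1).

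The direction depended on how mixed barcodes were treated. Leaving out barcodes with at least 3 UMIs of the macrophage or collagen-type genes named above gave 0.142% (19 members) in CP and 0.170% (15 members) in CP+EVs, a log2 ratio of 0.27 (-0.81 to 1.32) and so the other direction. That rule takes 92.7% of subset 1 in CP and 25% in CP+EVs, beside 93.1% and 63.9% of T cells. With the mixed barcodes also left out of the denominator, the shares were 1.55% of 1228 and 0.906% of 1656, a log2 ratio of -0.77 (-1.85 to 0.28). The amount of collagen RNA in a barcode moved with the library, and its part in the difference was not tested.

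**Figure D4:**
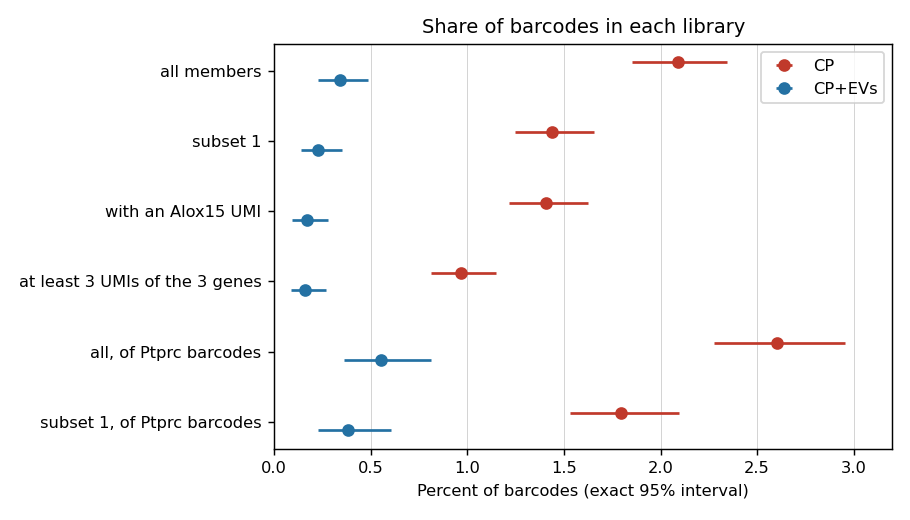
Percent of barcodes that were members in CP (red) and CP+EVs (blue), under 6 definitions of members or of the denominator; bars are exact 95% intervals. CP lies above CP+EVs under each of the 6, from 0.969% against 0.159% with at least 3 UMIs of the rule's genes to 2.60% against 0.556% of Ptprc barcodes.

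The tissue signals that attract eosinophils differed between the libraries in both directions. Ccl11, eotaxin, was at 66.0 CPM in CP and 209 CPM in CP+EVs over all kept barcodes, and Ccl24, another eotaxin, at 4.96 and 2.44 CPM. Il33, the alarmin that acts through Il1rl1, was at 207 and 73.5 CPM, and Ccl7 at 139 and 52.4 CPM. Il5, the growth factor of eosinophils, was at 4.003 CPM in CP and 0.416 CPM in CP+EVs. Levels over all kept barcodes also depend on which cells each library held. The acinar marker list summed to 406 CPM in CP and 98326 CPM in CP+EVs, and the fibroblast list to 25599 and 12700 CPM. The part of cell composition in these differences was not tested.

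Levels within members of the libraries were dominated by the plasma-cell-gene barcodes unless subset 1 was used. Over all members, 3.36% of 6485 genes were at least 2-fold higher in CP+EVs and 43.9% lower, with a median log2 ratio of -0.83. Among the highest, the secretory gene Txndc5 was at 867.0 against 187.3 CPM and Tent5c at 590.1 against 95.8 CPM. Jchain was at 28071 CPM in CP+EVs members and 2924 CPM in CP members. Among the lowest, Mpo and Elane had no UMI in CP+EVs, and S100a8 was at 7.29 against 1235 CPM. Gp2, an acinar cell glycoprotein, led the higher genes at 757.7 against 4.36 CPM.

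Subset 1 had 20 barcodes in CP+EVs with a median of 1319 UMIs, so most genes were counted few times. Of 3017 measured genes, 7.13% were at least 2-fold higher in CP+EVs and 22.2% lower (median log2 -0.25). F5 was at 2399 CPM (1905 to 2982) against 2309 CPM in CP, Syne1 at 2044 against 2141 CPM, and Csf2rb at 1096 against 1025 CPM, with ratios of 1.04 (0.815 to 1.31), 0.955 (0.733 to 1.23) and 1.07 (0.738 to 1.51). Serpinb2 was at 1629 against 2012 CPM, a ratio of 0.81 (0.603 to 1.07). For these 4 genes no difference was detectable at this depth. CP+EVs members were placed by their nearest CP subset, which favours barcodes with levels like those of CP subset 1. Similar levels of its leading genes may therefore be partly set by the placement.

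Alox15 was lower in the CP+EVs subset, at 1511 CPM (1125 to 1986) with a UMI in 15 of 20 barcodes, 2.04-fold below CP (1.54 to 2.76); 3 of the 20 barcodes held over 50% of its 51 UMIs. Rab44 was 2.15-fold lower (1.44 to 3.36). Retnlg was at 1599 CPM (1202 to 2087), found in 8 of 20 barcodes, 7.25-fold lower (5.54 to 9.67). Its level over all kept barcodes was 611 CPM in CP and 32.3 CPM in CP+EVs, which also depends on the cells each library held. The part of free RNA in the Retnlg difference was not tested. Prg2 had no UMI in CP+EVs subset 1, at least 4.17-fold lower than CP subset 1 against a floor of 3 counts. Outside subset 1, CP+EVs members with a Prg2 UMI were 4 of 8 in subset 3 and 1 of 2 in subset 4. Ccl6 was at 2607 CPM, 2.65-fold lower (2.14 to 3.32), with the library at 1250 and 650 CPM.

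Cytokine genes of subset 1 differed unevenly. Of 11 measured cytokines, 8 were at least 2-fold lower in CP+EVs and 1 higher (median log2 -1.46), beside 22.2% and 7.13% of all genes. Tnf had 1 UMI in CP+EVs (29.6 CPM) against 462 CPM in CP, 15.6-fold lower (2.75 to 620), and Il1b was at 563 against 1588 CPM. Csf1, the macrophage growth factor, was the one higher, at 1007 (34 UMIs in 6 barcodes) against 252 CPM, 3.998-fold (2.58 to 6.09). Ccl4 was at 1214 CPM (5 barcodes) against 612 CPM and Ccl9 at 1896 against 1112 CPM. Of 21 activated-eosinophil genes, 7 were lower and none higher, beside the same shares of all genes. Of 16 interferon-stimulated genes 9 were lower and 1 higher, beside those shares. Most genes of the interferon list were read above as background in CP subset 1 (33 of 40). All 46 listed genes summed to 4803 CPM in CP subset 1 and 2725 CPM in CP+EVs subset 1. Over all kept barcodes the same sums were 10227 and 5392 CPM, so the whole libraries differed in the same direction. How much free RNA gave to the lower interferon genes was not tested.

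Free RNA of other cells moved with the library in the same comparison. The acinar marker list summed to 111075 CPM in CP+EVs subset 1, 113% of its library level, and to 157 CPM in CP. Col1a1 was at 59.2 against 1207 CPM, Saa3 at 0 against 479 CPM and S100a8 at 0 against 640 CPM, while the CP+EVs library as a whole had Saa3 at 2.83 CPM and S100a8 at 51.1 CPM. Retnla was at 1599 CPM in CP+EVs subset 1, below the 1909 CPM of its library. Markers of unrelated cell classes in that subset reached up to 141% of their library level (Ctrb1). Of the 54 Retnla UMIs, 75.9% lay in 3 of the 20 barcodes. The part of free RNA in the Retnla level was not tested. The part of free RNA in the other differences was not tested.

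**Figure D5:**
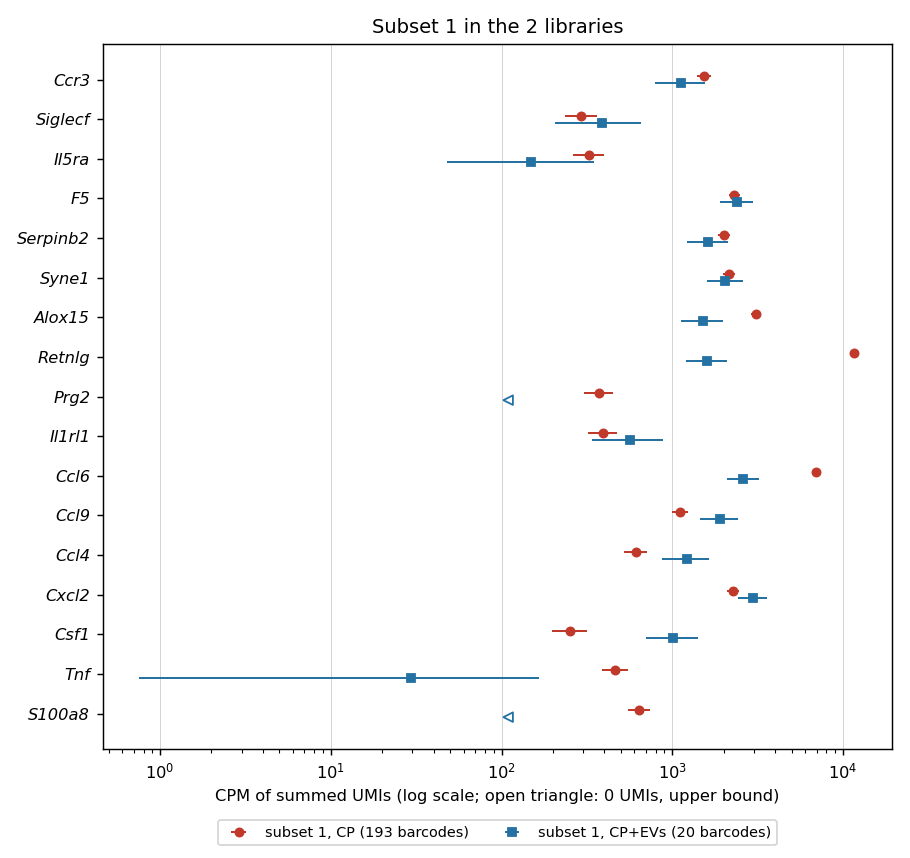
Levels of 17 genes in subset 1 of CP (red circles, 193 barcodes) and of CP+EVs (blue squares, 20 barcodes), as CPM of summed UMIs on a log axis with exact 95% counting intervals; an open triangle marks 0 UMIs at its upper bound. F5, Serpinb2 and Syne1 overlap between libraries, Alox15, Retnlg, Ccl6 and Tnf lie lower in CP+EVs, and Csf1 lies higher.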

How the data were processed

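Pancreas cells were captured on the BD Rhapsody system, per the labels. The authors deposited unnormalized UMI counts for each gene and barcode, per the file headers. The submitters' processing notes name CASAVA 1.8, UMI-tools, Seurat and the build mm10; aligner and cell-calling rule: not given in the sources used here. Lowest barcode totals were 501 UMIs in both libraries. Of 31253 features, 31107 matched GENCODE vM21 identifiers.

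Barcodes over 25% mitochondrial UMIs were left out (98 and 46). No doublet caller was run and no doublets were removed. Counts were summed per set and scaled to 1000000 (numpy 2.4.6, scipy 1.17.1, pandas 2.3.3), with exact Poisson, conditional and Clopper-Pearson intervals and no test, since each group is 1 library. Calls, medians and rankings used log2 ratios with 0.5 added counts; folds in the text are plain CPM ratios, and the interval script was tested on simulated data. Subsets came from scanpy 1.11.5 (2000 variable genes, 20 components, 15 neighbours, Leiden resolution 0.5). Promoters came from RefSeq on GRCm38.p6.

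Named genes were the 15 highest in members, the 10 highest and lowest against each set, 6 each way between libraries, 8 per subset, the 5 most like Ccr3 (at least 100 CPM and 100 UMIs), and listed genes chosen by role. Members and lists were chosen with earlier results of these data known.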

Additional observations from a re-analysis of the deposited data

How the results depend on the processing

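The limits are 1 library per condition, an unknown number of animals, free RNA in most barcodes, 20 barcodes of subset 1 in CP+EVs, and marker counts of a few UMIs per barcode, so genes under about 100 CPM could not be compared between libraries. No paired analysis was possible because each group has 1 library. Of the alternatives to the shares, counts and subsets, 62 stayed within their interval or within 1.5 times, 42 moved and 1 reversed; of those to lists and single genes, 860 stayed, 382 moved and 1 reversed. The share of members in CP and CP+EVs was 6.08% and 1.18% with at least 1 UMI of the 3 genes, 0.969% and 0.159% with at least 3, and 0.567% and 0.0682% after thinning. In CP it was 1.72% with a Cxcr2 and Csf3r limit of 0.1%, 2.88% with none, and 2.60% with at least 500 genes; in CP+EVs it was 0.227% with no B or T cell UMI. Without mixed barcodes the shares were 0.142% and 0.170% and the log2 ratio turned from -2.61 to 0.27. Alternatives added after seeing the data gave 1.44% and 0.227% (subset 1), 1.41% and 0.170% (Alox15), 2.60% and 0.556% (of Ptprc barcodes) and 1.798% (CP subset 1 of Ptprc barcodes). Against neutrophils, 2394 genes were higher and 740 lower; 385 were lower with no Cxcr2 and Csf3r limit, 1434 higher by mean CPM per barcode, 692 and 454 at 100 CPM or more, and 6481 and 1528 with no filter. Against monocytes and macrophages, 473 were higher and 356 lower; the pairs were 163 and 48 with at least 1 UMI, 1468 and 1631 after thinning, 2455 and 1253 without mixed barcodes, 1335 and 1919 in subset 1, 201 and 101 at 100 CPM or more, and 6192 and 1378 with no filter, and the lower count was 601 with at least 3 UMIs, 590 with Alox15 and 1142 by mean CPM. Leiden resolution 1 gave 8 subsets with 18.2% of members in the largest. The chemoattractant receptor list had a median log2 ratio of 1.07 against neutrophils, which reversed to -0.014 at 100 CPM or more; the cause was not tested.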
